A study of Mus musculus with 48 samples.

Results

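The sites described here are 1096 wild-type (WT) CTCF binding sites at which cohesin was found with WT CTCF and was missing with most CTCF mutants. They were chosen from peak lists. A site is a FLAG ChIP peak of WT CTCF that overlapped a peak of the cohesin subunit SMC3 in the same WT cells, and it was taken when 5 or more of the 9 mutant SMC3 lists held no overlapping peak. Of 15392 WT FLAG peaks, 12503 overlapped a WT SMC3 peak, and 1096 of these (8.77%) met the rule. The other 11407 are called other cohesin sites below, and 7017 of them had SMC3 in all 9 mutants. Presence or absence of SMC3 peaks chose the sites, so every SMC3 value is given as a description without a test.

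CTCF is a zinc-finger protein that recognises a long, directional DNA motif. Cohesin, a ring complex of which SMC3 is a core subunit, extrudes chromatin loops and is halted where it meets DNA-bound CTCF. In embryonic stem cells this arrangement sets the anchors of loops and the borders of topologically associating domains, and depletion of CTCF is known to remove cohesin from its sites without removing it from chromatin as a whole.

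The mutant cells came from the mouse embryonic stem cell line E14Tg2a (strain 129/Ola) and had an auxin-inducible degron on endogenous CTCF and a doxycycline-inducible, FLAG-tagged Ctcf transgene that carried H455R, R448Q, Q418R, R377H, R377C, K365T, S354F, R342C or R339Q, each a single residue change in the DNA-binding zinc fingers. The WT cells had the same degron and a WT transgene. All received 500 µM indole-3-acetic acid (IAA), which degrades the endogenous protein, and 1 µg/ml doxycycline, which induces the transgene, for 2 days. CTCF was also precipitated with a CTCF antibody from treated and from untreated WT cells. The labels speak of clones derived from the line and do not say how many clones stand behind a genotype. The 48 samples form 24 groups of 2 replicates, and 22 groups had a peak list, 10 for FLAG, 10 for SMC3 and 2 for the CTCF antibody. FLAG in untreated WT cells and IgG were not analysed here. Each list pools both replicates, so a genotype gives 1 value without replicate error, and separate cultures cannot be told apart from technical repeats. The read depth behind each list is unknown. The lists hold no expression values, so the cell type could not be checked against marker genes.

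Sequence was at hand for the 25 sites losing cohesin (2.28%) that overlapped a RefSeq promoter window, which reaches from 250 bases before to 50 bases after an annotated gene start in GRCm38.p6. At 550 of the other cohesin sites (4.82%) such a window was overlapped. The sequences below show the part of the FLAG peak inside the window at the 5 genes whose window held a match to the CTCF core motif inside the peak, and at Adsl. Bases of a peak outside the window could not be searched, as at Adsl, whose peak begins at 80948120, before its window. Adsl and Gm11691 had mutant FLAG peaks in 8 mutants, the most among the promoter sites, and windows without a match; Adsl is shown as the one with the higher WT FLAG value. The Dapk2 stretch is chr9:66157976-66158184 on the plus strand, Dcaf12l1 is chrX:44790272-44790388 on the minus strand and Gm16740 is chr3:95217228-95217327 on the plus strand. Gm2109 is chr9:83691386-83691524, Gm41099 is chr14:19042097-19042245 and Adsl is chr15:80948240-80948466, all on the plus strand. Each is the part of the RefSeq promoter window covered by the WT FLAG peak, 5′ to 3′ on the strand of the gene, and capitals mark the match to the core motif or to its reverse complement.
Dapk2: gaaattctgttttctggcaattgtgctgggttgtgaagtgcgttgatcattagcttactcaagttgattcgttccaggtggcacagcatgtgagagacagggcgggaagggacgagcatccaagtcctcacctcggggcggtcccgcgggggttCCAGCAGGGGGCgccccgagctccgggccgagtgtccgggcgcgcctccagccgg
Dcaf12l1: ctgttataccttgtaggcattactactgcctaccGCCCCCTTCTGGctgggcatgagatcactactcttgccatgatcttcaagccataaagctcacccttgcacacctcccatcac
Gm16740: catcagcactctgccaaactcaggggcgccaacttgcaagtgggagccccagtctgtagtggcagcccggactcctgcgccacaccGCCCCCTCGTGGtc
Gm2109: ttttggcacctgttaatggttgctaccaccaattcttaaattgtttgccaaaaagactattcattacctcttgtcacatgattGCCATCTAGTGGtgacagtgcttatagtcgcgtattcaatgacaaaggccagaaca
Gm41099: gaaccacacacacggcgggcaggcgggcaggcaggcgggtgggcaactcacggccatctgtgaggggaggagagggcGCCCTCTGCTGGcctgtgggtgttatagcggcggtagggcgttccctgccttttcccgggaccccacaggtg
Adsl: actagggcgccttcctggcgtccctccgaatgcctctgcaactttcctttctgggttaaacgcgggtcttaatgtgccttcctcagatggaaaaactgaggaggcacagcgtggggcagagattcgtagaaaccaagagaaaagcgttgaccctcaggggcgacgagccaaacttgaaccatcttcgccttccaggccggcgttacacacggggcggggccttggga

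The core motif, which reads CCA, any 2 bases, AG, any 2 bases and GGC and was searched on both strands, was matched in 6 of the 31 promoter windows overlapped by sites losing cohesin (19.4%), against 142 of 631 windows overlapped by other cohesin sites (22.5%) and 797 of all 32851 windows (2.43%). The 6 windows stand for 5 genes, since Dcaf12l1 has a pair of windows that hold the same stretch. Dapk2, a calcium- and calmodulin-dependent protein kinase gene, carried the match on the plus strand, 96 bases before its start. The site had no overlapping SMC3 peak in any mutant, and with S354F one lay within 500 bp. FLAG peaks were found there with S354F, at a value of 3.13, and with R377C, at 2.86. These values are the authors' peak-caller scores on an unstated scale, and only values of the same list can be compared. At Dcaf12l1, on the X chromosome, SMC3 was found with R448Q alone among the mutants, and FLAG with 5 mutants. At Gm2109 the FLAG peak was kept with 7 mutants and SMC3 with 4, while at Gm41099 FLAG was kept with 6 and SMC3 with 4. Gm16740 kept FLAG with 2 mutants, S354F and R377C, and SMC3 with 4.

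The first comparison asked whether mutant CTCF was itself found less often at the sites losing cohesin, since the FLAG lists of the mutants had no part in choosing them. Mutant FLAG peaks were kept less often there than at other cohesin sites with every mutant. The mean share kept was 44.6% ± 27.1 at sites losing cohesin and 72.1% ± 26.6 at other cohesin sites (SD, n = 9 mutants). The difference was -27.5 percentage points (SD 13.5, range -40.8 to -5.19), lower in 9 of 9 mutants, and an exact two-sided sign-flip permutation test over the mutants gave p = 0.00391, the smallest that its 512 sign combinations allow. The 9 mutants are compared with the same WT lists and so are not independent. The FLAG and SMC3 lists share 2 library codes with WT, K365T, Q418R and H455R, and 1 with S354F, R377H and R448Q. The FLAG lists may thus not be wholly separate from the SMC3 lists that chose the sites. When sites were chosen without the SMC3 list of the mutant tested, the difference was -25.6 points, negative in 9 of 9 mutants. Peak names carry a tag in the SMC3 lists alone. Among the 5 mutants whose SMC3 peaks all have the tag b1, as those of the WT SMC3 list do, the difference was -29.1 points, and the exact p of 0.0625 is the smallest that 5 mutants allow.

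The drop was widest with K365T, whose FLAG peak was kept at 230 of the 1096 sites losing cohesin (21.0%, 95% Wilson interval 18.7 to 23.5) and at 61.8% of other cohesin sites. Of all 12503 cohesin sites, 41.8% had no K365T FLAG peak. R339Q was kept at 288 sites (26.3%) and at 62.9% of the others, with 40.3% of all cohesin sites lacking it. Q418R was kept at 334 sites (30.5%) and at 68.0% of the others, and 35.3% of all lacked it. The differences of Q418R (-37.5 points), R377H (-36.7), R342C (-36.7) and R339Q (-36.6) were close to one another.

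The shares kept by R377H, R342C and R448Q were intermediate. R377H was kept at 501 sites losing cohesin (45.7%) and at 82.4% of other cohesin sites, and 20.8% of all cohesin sites lacked it. R342C was kept at 523 sites (47.7%) and at 84.5% of the others, with 18.8% of all lacking it. R448Q was kept at 641 sites (58.5%) and at 84.3% of the others, with 18% lacking it. At the top stood S354F and R377C, which were found at most sites of both kinds. S354F was kept at 847 sites losing cohesin (77.3%) and at 96.5% of the others, while 5.21% of all cohesin sites lacked it. R377C was kept at 978 sites (89.2%) and at 97.9% of the others, while 2.88% lacked it. H455R was found at few sites of either kind, 59 of those losing cohesin (5.38%) and 10.6% of the others, and 89.9% of all cohesin sites lacked it. The FLAG lists differed in length. R377C had 30462 peaks and S354F 24152, against 15392 for WT, 13151 for K365T and 3855 for H455R. Q418R had 30332 peaks and was still kept at fewer sites than R448Q, with 19403. The part of list length in the shares kept was not tested.

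**Figure D1:**
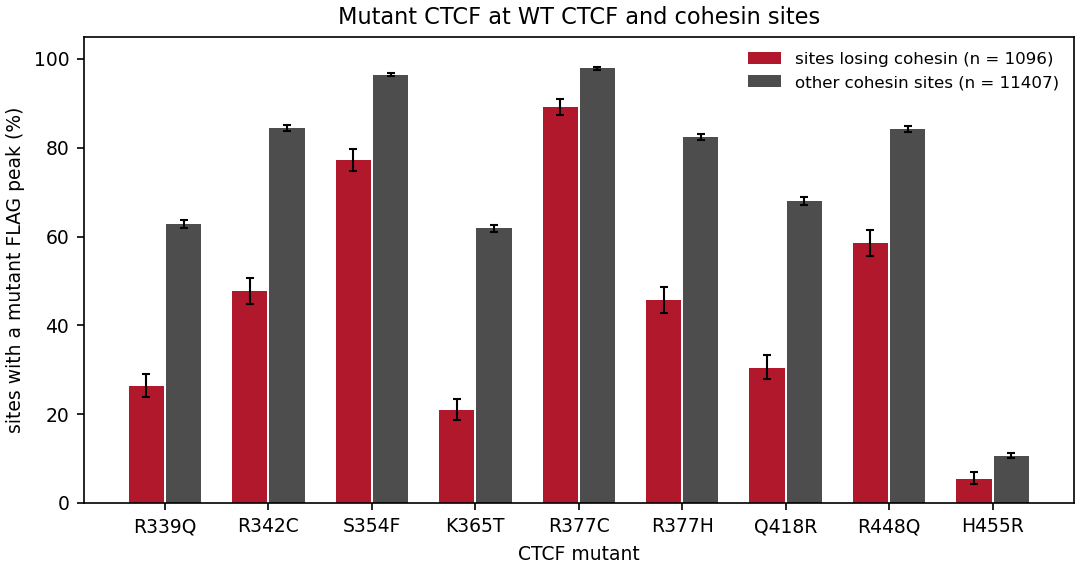
Share of sites with an overlapping mutant FLAG peak, in percent, for each of the 9 CTCF mutants, at the 1096 sites losing cohesin (red) and the 11407 other cohesin sites (grey). Bars are shares of 1 pooled list and error bars are 95% Wilson intervals, which cover counting error over sites only. The red bar is lower with every mutant, with a difference of -5.19 points for H455R and of -40.8 points for K365T.

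Counted per site, mutant FLAG peaks were kept with a median of 4 of the 9 mutants at sites losing cohesin (mean 4.02, SD 1.86) and 7 at other cohesin sites (mean 6.49, SD 1.86). No mutant FLAG peak was found at 26 sites losing cohesin (2.37%) and at 16 of the others (0.140%). All 9 mutants kept FLAG at 1 site losing cohesin, against 741 of the others (6.50%). Where a mutant peak was present, it also stood lower in its own list. R377C peaks had a median percentile of 62.5 in the R377C list at sites losing cohesin and 80.1 at other cohesin sites, and S354F peaks had 51.3 and 74.1. The gap was narrowest with H455R, at 60.5 and 63.5, and the median was lower at sites losing cohesin with each of the 9 mutants.

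The sites losing cohesin were also weaker than other cohesin sites in WT cells. The difference in kept FLAG was therefore recomputed among sites of like strength. Standardised over deciles of the WT SMC3 value the difference was -19.2 points, over deciles of the WT FLAG value -21.5, over quintiles of both together -18.4 and over deciles of WT FLAG peak width -17.0. It was negative in 9 of 9 mutants in each, with an exact permutation p of 0.00391. With every SMC3 list cut to its top 42030 peaks and every mutant FLAG list to its top 3855, and the WT FLAG list kept whole, it was -20.2 points and 1602 sites met the rule. The remaining part that strength or width has in the difference was not tested.

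Absence of SMC3 was spread unevenly over the mutants. H455R lacked SMC3 at 992 of the 1096 sites (90.5%), Q418R at 966 (88.1%) and R339Q at 945 (86.2%). Absence was nearly as frequent with R377C, at 883 sites (80.6%), and with S354F, at 865 (78.9%), both of which mostly kept FLAG. K365T lacked SMC3 at 726 sites (66.2%), R377H at 720 (65.7%), R342C at 343 (31.3%) and R448Q at 212 (19.3%). Over all 12503 cohesin sites the share without SMC3 was 22.1% with H455R, 25.9% with Q418R, 22% with R339Q, 12.7% with R377C, 18.6% with S354F, 10.1% with K365T, 8.68% with R377H, 3.43% with R342C and 2.08% with R448Q. The length of the SMC3 lists moved with these shares at its ends. The Q418R list was the shortest with 42030 peaks and the R448Q list the longest with 153647, and the WT list held 71962. The shares also went with the tag in the SMC3 peak names. Q418R (b3), R339Q (b2), R377C and S354F (both b1 and b2) all lacked SMC3 at 78.9% of the sites or more. Of the mutants with b1 alone, H455R did too, and the others lacked it at 66.2% or fewer. The meaning of the tag is not stated, and its part in these shares was not tested.

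The rule allows many combinations of mutants, and 149 occurred. The most frequent was SMC3 with R342C and R448Q alone, at 91 sites (8.30%). SMC3 was kept with R342C, K365T and R448Q at 66 sites, with those and R377H at 65, and with R448Q alone at 60. By number of mutants lacking SMC3, 430 sites lacked it in 5, 324 in 6, 208 in 7, 104 in 8 and 30 in all 9. H455R, which lacked SMC3 most often, weighs most on the count: with H455R left out, 730 sites lacked SMC3 in 5 or more of the remaining mutants. The count was nearly as low without Q418R (750) or R339Q (763). With the threshold held at 5, leaving out a mutant cannot raise the count. The 430 sites just inside the threshold had a median WT FLAG value of 3.38, a median WT SMC3 value of 4.01 and FLAG with a mean of 4.44 mutants. The 639 sites just outside, which lacked SMC3 in 4 mutants, had 3.22, 4.01 and 4.67. The 30 sites with no SMC3 in any mutant had a median WT SMC3 value of 3.14 and kept FLAG with a mean of 2.87 mutants. Of them, 6 lay within 1 kb of an end of a protein-coding gene.

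The FLAG and SMC3 lists of the same mutant can be set side by side at each site, which gives 9864 pairs of a site and a mutant. Neither peak was present in 4277 pairs (43.4%), FLAG alone in 2375 (24.1%), SMC3 alone in 1186 (12.0%) and both in 2026 (20.5%). Of the 6652 pairs without SMC3, 35.7% thus had a FLAG peak of the mutant at the site. At other cohesin sites that share was 35.4% of 9046 pairs without SMC3.

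Within each mutant, SMC3 was missing at a larger share of the sites where the mutant FLAG peak was absent than of those where it was present. With K365T, 655 of 866 sites without FLAG lacked SMC3 (75.6%), against 71 of 230 with FLAG (30.9%). With R339Q the shares were 96.2% of 808 sites without FLAG and 58.3% of 288 with FLAG, and with R448Q 33.4% without FLAG and 9.36% with it. Q418R gave 95.9% without FLAG and 70.4% with it, H455R 92.0% and 64.4%, R342C 41.4% and 20.3%, and R377H 73.3% and 56.7%. The gap was smallest with R377C, at 84.7% of 118 sites without FLAG and 80.1% of 978 with FLAG. Its 95% Wilson intervals, 77.2 to 90.1 and 77.4 to 82.4, overlapped, so R377C shows no clear gap. S354F lacked SMC3 at 94.4% of 249 sites without FLAG and at 74.4% of 847 with FLAG. At other cohesin sites the same order held with each mutant, at lower shares, from 57.6% without FLAG and 11.1% with FLAG for S354F to 1.95% and 0.135% for R448Q. These shares were not standardised over WT strength, and its part in the gaps was not tested. The FLAG and SMC3 lists share no library code with R339Q, R342C and R377C, so for these the pairing of the antibodies rests on genotype alone.

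**Figure D2:**
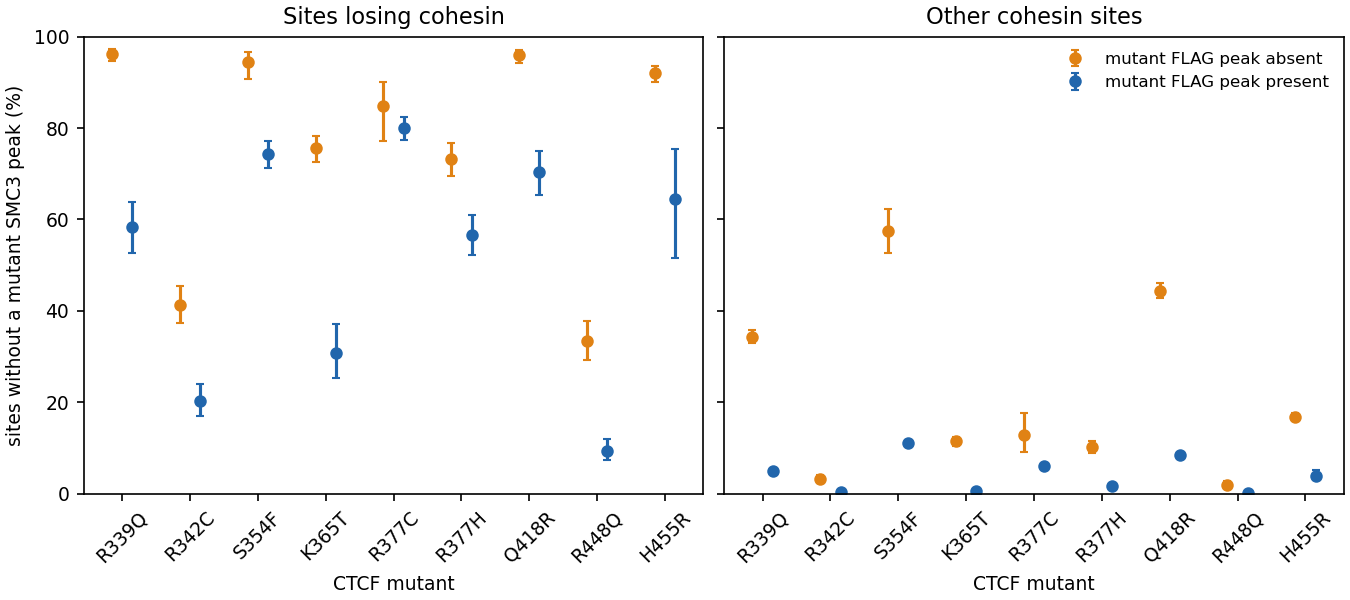
Share of sites without a mutant SMC3 peak, in percent, split by whether the mutant FLAG peak was absent (orange) or present (blue), for the sites losing cohesin (left panel) and other cohesin sites (right panel). Points are shares of pooled lists with 95% Wilson intervals. Orange lies above blue with every mutant in both panels. At sites losing cohesin R377C has the closest pair, 84.7% and 80.1%, with overlapping intervals.

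Some absences lay close to a peak. Of the 6652 pairs without an overlapping SMC3 peak, 549 (8.25%) had one within 500 bp and 18.1% within 2 kb. In 142 pairs (2.13%) the running peak number in the SMC3 list had a gap between the peaks on either side of the site. A peak removed before deposit can have stood anywhere between them, so the gap does not place it at the site. With a match allowed within 500 bp, 987 sites met the rule, and with those gaps counted as SMC3 peaks 1059 did.

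In WT cells, the sites losing cohesin were weaker in all 4 lists. Their median WT FLAG value was 3.24 (quartiles 2.76 to 3.89), against 4.08 (3.07 to 5.53) at other cohesin sites. The median WT SMC3 value was 3.74 (3.20 to 4.41), against 7.08 (5.08 to 10.2), and 81.7% of the sites losing cohesin fell in the lowest quartile of cohesin sites by WT SMC3, against 19.6% of the others. Only 3 sites losing cohesin lay in the top quartile by WT SMC3. These sites were still not the weakest of the WT SMC3 list as a whole, where their median stood at the percentile 72.7, against 92.2 for the others. The CTCF antibody gave median values of 65.0 and 107 in treated WT cells and 47.2 and 62.6 in untreated WT cells, for sites losing cohesin and other cohesin sites in that order. Both kinds stood high in the whole antibody lists, at median percentiles of 89.6 and 95.5 in treated and 92.6 and 96.1 in untreated WT cells. In the WT FLAG list the median percentiles were 38.8 and 59.6. WT FLAG peaks were narrower, with a median width of 172 bp against 292 bp, and 10.7% of them against 18.5% held more than 1 summit.

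Split into quintiles of the 12503 cohesin sites, the share losing cohesin followed WT SMC3 closely. It was 31.6% in the lowest quintile by WT SMC3 value (790 sites), then 9.6%, 2.24%, 0.36% and, in the highest quintile, 0.04% (1 site). By width of the WT FLAG peak it was 22.4%, 11.8%, 5.64%, 3% and 1%. By WT FLAG value the lower pair of quintiles were close, at 13.2% and 14.1%, and the share then came to 10.6%, 4.56% and 1.36%. The WT SMC3 list is part of the rule, and so these shares describe the sites chosen and carry no test.

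**Figure D3:**
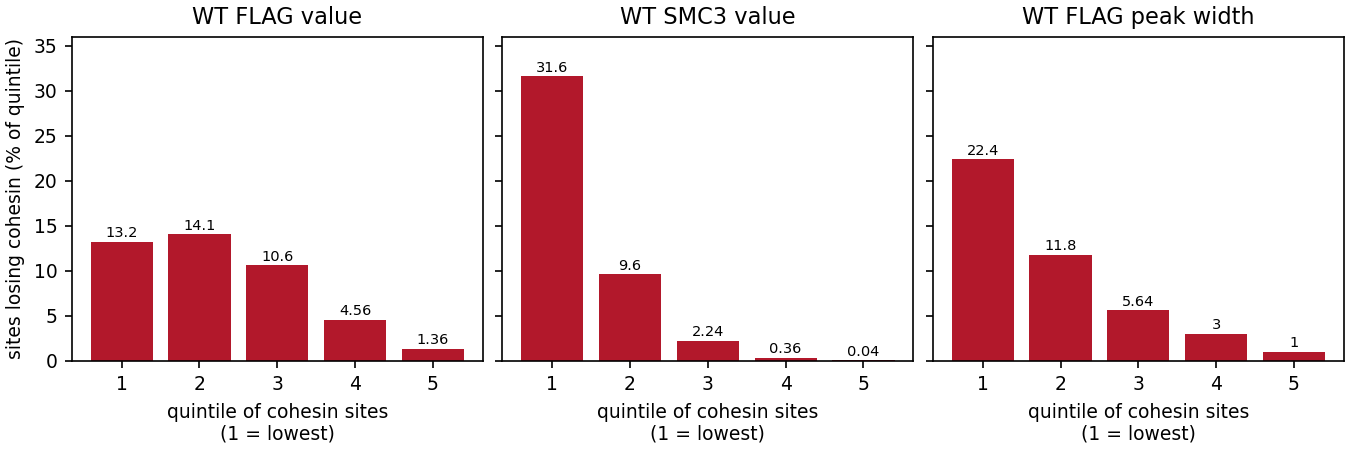
Percent of cohesin sites that lost cohesin in 5 or more mutants, in quintiles of all 12503 sites from the lowest (1) to the highest (5) by WT FLAG value, WT SMC3 value and WT FLAG peak width. The share is 31.6% in the lowest and 0.04% in the highest quintile by WT SMC3, and 13.2% and 1.36% by WT FLAG.

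Nearly all of the sites were also found by the CTCF antibody. It gave a peak at 1051 sites losing cohesin in treated WT cells (95.9%, interval 94.6 to 96.9), against 98.7% of other cohesin sites. In untreated WT cells, which hold endogenous CTCF, it gave one at 1054 (96.2%), against 98.8%. Neither condition had a peak at 42 sites losing cohesin (3.83%) and at 139 others (1.22%).

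More of the sites than of other cohesin sites lay far from protein-coding genes, and their neighbouring CTCF sites were farther away. Gene ends, gene bodies and intergenic places are set by protein-coding genes alone. A site called intergenic can thus lie at a gene of another kind. A gene end lay within 1 kb of 73 sites losing cohesin (6.66%, interval 5.33 to 8.29), against 1248 others (10.9%, 10.4 to 11.5). Gene bodies held 41.7% against 37.5%, and 51.6% against 51.5% were intergenic. More than 100 kb from any protein-coding gene were 122 sites (11.1%), against 635 (5.57%). The nearest other WT FLAG site was a median of 35.6 kb away, against 19.6 kb, and lay within 10 kb for 24.5% against 35.2%. These traits were not particular to the sites losing cohesin. The 639 sites just outside the rule, without SMC3 in 4 mutants, had a median of 34.2 kb and 24.6% within 10 kb. Of these 639, 7.98% lay at a gene end and 9.70% more than 100 kb from any protein-coding gene. Among themselves the sites losing cohesin were scattered, with a median of 570 kb to the nearest site that also lost cohesin and 26 (2.37%) within 10 kb of one.

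By chromosome, the share of cohesin sites that lost cohesin was lowest on chromosome 11, at 45 of 918 (4.90%, interval 3.68 to 6.50), and chromosome 8, at 33 of 669 (4.93%). It was highest on the X chromosome, at 24 of 154 (15.6%, 10.7 to 22.1), followed by chromosome 12 at 60 of 442 (13.6%) and chromosome 13 at 60 of 466 (12.9%). The share of sites at gene ends also differed between chromosomes: 13.8% of the cohesin sites of chromosome 11 lay at a gene end, 13.5% on chromosome 8, 7.79% on X, 6.11% on chromosome 12 and 6.01% on chromosome 13. This did not run against the share losing cohesin throughout, since on chromosome 3, where 12.8% lost cohesin, 12.4% lay at a gene end, and on chromosomes 18 and 19, where 11.1% lost cohesin on each, 12.4% and 12.2% did. The median WT SMC3 value was 5.48 on X, 6.50 on chromosome 11 and 6.55 on chromosome 12. The part of gene ends and of WT SMC3 in the order of chromosomes was not tested.

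**Figure D4:**
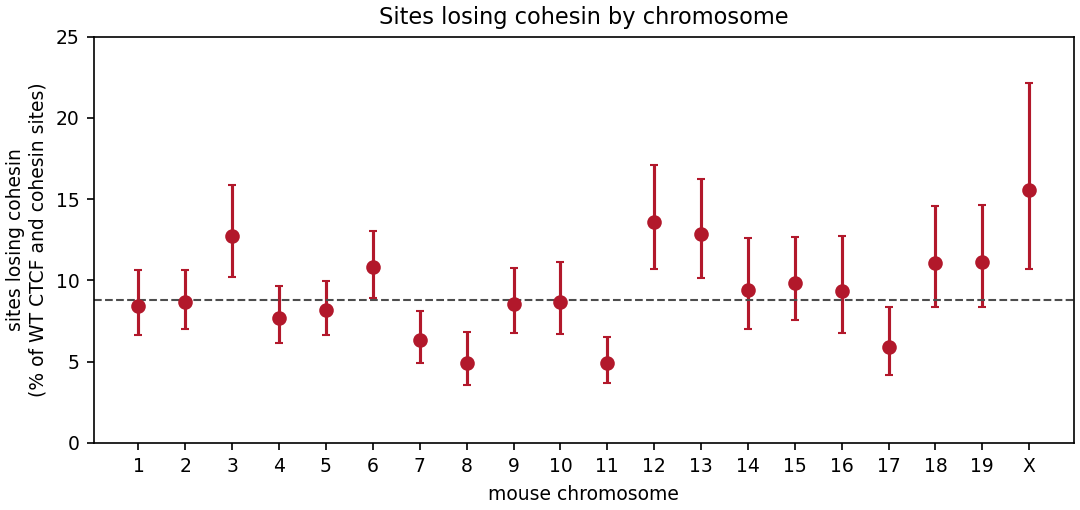
Percent of WT CTCF and cohesin sites that lost cohesin in 5 or more mutants, by mouse chromosome, with 95% Wilson intervals that cover counting error only; the dashed line is the share over all chromosomes, 8.77%. X stands highest at 15.6% and chromosomes 11 and 8 lowest at 4.90% and 4.93%.

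The strongest WT FLAG peaks among the sites losing cohesin showed mutant CTCF remaining where SMC3 was missing. The site nearest Cacul1, a cullin-domain protein gene linked to the cell cycle, lies on chromosome 19 at 60608792 to 60609139 (mm10) and had the highest WT FLAG value of the set, 8.80, with a WT SMC3 value of 2.82. FLAG was found there with R342C (3.33), S354F (5.05), R377C (8.63), R377H (3.66) and R448Q (4.40), and SMC3 was absent with S354F and R377C among these. A site 157 kb from the nearest end of Atxn1, the ataxin-1 gene, lies on chromosome 13 at 45807691 to 45808329. It had a WT FLAG value of 7.07 and a WT SMC3 value of 2.41. FLAG was found there with every mutant except H455R. The value was 3.47 in the Q418R list and 25.2 in the R448Q list, each on the scale of its own list. SMC3 was found with K365T, R377C, R377H and R448Q and was absent with the other 5. Near Map3k7, which codes for the kinase TAK1, FLAG was kept with 7 mutants and an overlapping SMC3 peak with 3, R342C, K365T and R448Q. A further SMC3 peak lay within 500 bp of it with S354F, R377H and H455R, so that with a match within 500 bp 3 mutants lacked SMC3 and the site no longer met the rule. Near Fzd8, a Wnt receptor gene, FLAG was kept with 6 mutants and SMC3 with R339Q, R342C and R448Q. The WT SMC3 value was 4.01 at the Map3k7 site and 4.63 at the Fzd8 site. The whole WT SMC3 list has a median of 3.16, and the values at the Cacul1 and Atxn1 sites lie below it.

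At 1 site all 9 mutants kept FLAG. It lies on chromosome 5 at 124785750 to 124785896, nearest to Dnah10, an axonemal dynein gene. Its FLAG values were 3.67 with R339Q, 4.09 with R342C, 3.56 with S354F, 6.0 with K365T, 6.83 with R377C, 8.10 with R377H, 8.35 with Q418R, 8.02 with R448Q and 3.62 with H455R, each on the scale of its own list. The WT SMC3 value of the site was 2.67, below the WT SMC3 list median of 3.16. SMC3 was found with R342C (2.21) and Q418R (3.43) and was absent with the other 7 mutants. At the Adsl promoter, whose gene codes for an enzyme of purine synthesis, FLAG was kept with all but H455R. The value was 5.07 in the Q418R list and 15.4 in the R377C list, which cannot be compared with each other. The WT SMC3 value at this promoter was 3.07, also below that median. SMC3 was found there with R342C, R377H and R448Q. SMC3 was absent there with the other 6 mutants, 5 of which kept FLAG. Its promoter sequence is the last of those printed above.

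No mutant SMC3 list held a peak at 30 sites, and the 6 strongest of these by WT FLAG lay nearest to Mill1, Kidins220, Cyria, Pdia6, Grk5 and Dapk2. The Mill1 site, near a gene of the MHC class I-like family, lies on chromosome 7 at 18265189 to 18265336, with WT values of 6.32 for FLAG and 4.54 for SMC3. It kept FLAG with S354F (2.75) and R377C (3.84). The site near Grk5, a G protein-coupled receptor kinase gene, lies on chromosome 19 at 60892225 to 60892400 and kept FLAG with 6 mutants. Its FLAG value was 3.09 in the R448Q list and 8.60 in the R377C list, each on the scale of its own list. The Pdia6 site, near a protein disulfide isomerase gene, kept FLAG with 5. Its WT SMC3 value was 2.40, below the WT SMC3 list median of 3.16, while that of the Grk5 site was 5.48. S354F had a FLAG peak at each of the 6 sites and R377C at all but the Cyria site, while Q418R and H455R had one at none. Over all 1096 sites losing cohesin, S354F kept FLAG at 77.3%, R377C at 89.2%, Q418R at 30.5% and H455R at 5.38%. The counts at these 6 sites are therefore not read as a trait of their own.

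At the other end, 26 sites had no FLAG peak in any mutant. The strongest of those with a CTCF antibody peak in both treated and untreated WT cells lay nearest to Themis3, LOC108167368, Mitf and Pdgfd. The Mitf site, 47.4 kb from the nearest end of this melanocyte transcription factor gene, lies on chromosome 6 at 97759444 to 97759650. It had antibody values of 67.5 in treated and 56.9 in untreated WT cells, and SMC3 was found with S354F, R377C and R448Q. The other 3 kept SMC3 with 1, 2 and 4 mutants. All 4 were chosen for having no mutant FLAG peak, so any mutant SMC3 peak there stands without one. Only 30 of the 1096 sites lacked SMC3 in all 9 mutants, and none of those 30 was without FLAG in every mutant. The SMC3 peaks at these 4 sites thus follow from how the sites were chosen.

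**Figure D5:**
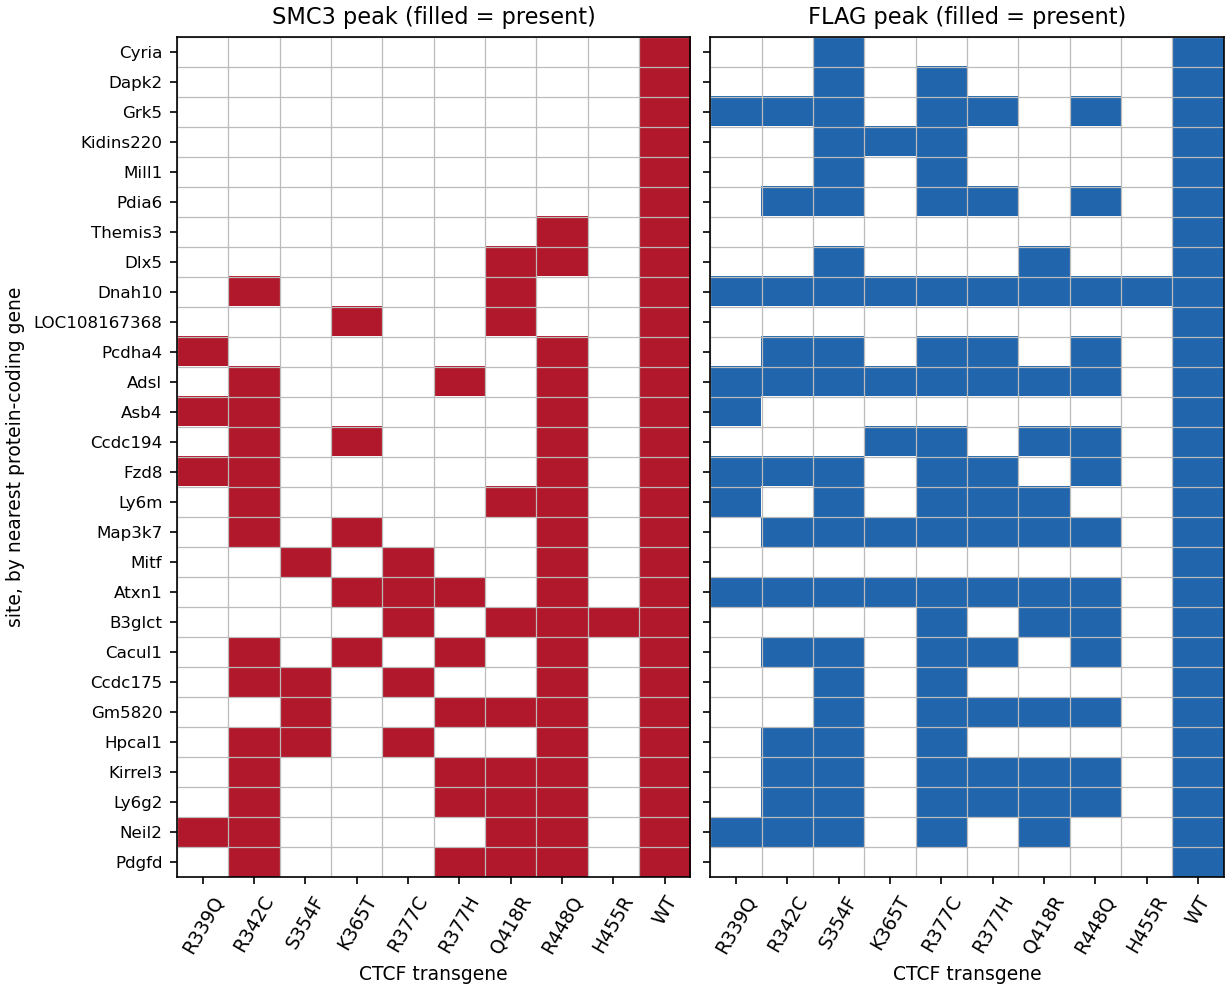
Presence of a peak (filled) at 28 sites losing cohesin, each named by its nearest protein-coding gene, for the 9 mutants and WT, with SMC3 in red on the left and FLAG in blue on the right. The 6 sites at the top have no mutant SMC3 peak, the Dnah10 row is filled for FLAG in all 9 mutants, and H455R is empty in the FLAG panel at every site except Dnah10.

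Among the sites with the highest WT SMC3 values, a neighbouring SMC3 peak lay close by in most of the mutants that lacked one at the site. The 6 highest lay nearest to Gm5820 (13.9), Ly6m (10.6), B3glct (9.76), Ccdc175 (9.22), Hpcal1 (8.82) and Asb4 (8.59). With a match allowed within 500 bp, SMC3 was missing in 0 mutants at the Gm5820, Ly6m, B3glct and Ccdc175 sites and in 1 at the Asb4 site, and these 5 then no longer met the rule. At the site of Hpcal1, a neuronal calcium sensor gene, SMC3 was still missing in 5.

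Gene groups with known CTCF sites or a role in stem cells or lineages were counted within 10 kb of their genes, against 8.77% for all cohesin sites. Of 14 cohesin sites near pluripotency genes 0 lost cohesin, and so did 0 of 13 near Hox genes, 0 of 13 near imprinted genes, 0 of 9 near trophoblast genes and 0 of 7 near genes of cohesin, its regulators and Ctcf. With so few sites, a count of 0 allows shares above 8.77% in each list. No cohesin site lay within 10 kb of the genes of the X inactivation centre. Near neural lineage genes 1 of 7 lost cohesin, next to Dlx5, a homeobox transcription factor gene, where SMC3 was kept with Q418R (11.3) and R448Q (4.79) and FLAG with S354F (3.74) and Q418R (22.3). Near mesoderm and endoderm genes 3 of 15 did, 1 near Foxa1, a pioneer factor gene of the endoderm, and 2 near Gata4, a gene of heart and endoderm development, of which 1 is nearest to the DNA repair gene Neil2. Within 50 kb, 3 of 49 cohesin sites near mesoderm and endoderm genes lost cohesin (6.12%), which is below the 8.77% of all cohesin sites while 3 of 15 is above it. Within 50 kb, 3 of 21 near neural lineage genes and 2 of 27 near imprinted genes did, and 0 of 47 near pluripotency genes, 0 of 16 near Hox genes, 0 of 25 near trophoblast genes and 0 of 21 near genes of cohesin, its regulators and Ctcf.

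The clustered protocadherins, whose stochastic promoter choice in neurons is known to depend on CTCF and cohesin, had 5 of 15 cohesin sites within 10 kb among those losing cohesin (33.3%), and 5 of 19 within 50 kb (26.3%). All 5 lie in the cluster on chromosome 18. The site nearest Pcdha4, at 36953128 to 36953505, had a WT FLAG value of 5.38 and a WT SMC3 value of 2.81, kept SMC3 with R339Q (2.59) and R448Q (3.75), and kept FLAG with R342C (3.13), S354F (3.47), R377C (5.06), R377H (4.63) and R448Q (4.67). The site nearest Pcdha12, at 37089870 to 37090052, kept SMC3 with R448Q alone and FLAG with K365T, R377C and R448Q. The sites nearest Pcdhb6 and Gm38667 lacked SMC3 in 7 and 6 mutants, and the site nearest Pcdhga4 in 5. R448Q had both peaks at all 5 sites, and R339Q and H455R had a FLAG peak at none. Over all 1096 sites losing cohesin, R448Q kept FLAG at 58.5% and lacked SMC3 at 19.3%. R339Q kept FLAG at 26.3% of them and H455R at 5.38%. Sites of 1 cluster are not independent, and 15 sites are few, so the share is given as a description.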

How the data were processed

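Peak lists for FLAG, SMC3 and the CTCF antibody were used, with groups taken from the labels. The submitters' processing notes name the build mm10 and the tools Bowtie2, Trim Galore, deepTools and MACS2; no versions are given in these sources. The authors' lists have 5 columns, of which the last is a score on an unstated scale that was compared only within a list. Repeated intervals were collapsed to the highest value. Between 1.30% and 5.26% of peak numbers are missing per list, and the filter behind this is not stated.

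Overlap was at least 1 bp. Python 3.11.15, numpy 2.4.6, pandas 2.3.3, scipy 1.17.1 and matplotlib 3.10.9 were used, with bedtools 2.31.1 and simulated lists as a check of the overlaps. Wilson intervals are at 95% and cover counting error only. The test was an exact two-sided sign-flip permutation over mutants. Gene spans and sequences came from RefSeq GRCm38.p6, the assembly mm10 names. The spans carry no strand, so distances run to the nearest gene end. Locations and nearest genes were taken from protein-coding genes alone.

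The sites, gene lists and tests were chosen with earlier results of these data known. Named sites were the 6 with the highest WT FLAG, the 6 with the highest WT SMC3 and, by WT FLAG, the 6 without SMC3 in any mutant, those with FLAG in all mutants, the 4 with FLAG in none but with antibody peaks, the strongest per gene list within 10 kb and the 4 strongest within 1 kb of a protein-coding gene end. Other sites named at promoters and near listed genes are those with a motif match or in the list.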

Additional observations from a re-analysis of the deposited data

How the results depend on the processing

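The lower share of kept FLAG at the sites losing cohesin was negative in every mutant under every alternative run, from -30.3 points without H455R to -25.8 without K365T when 1 mutant was left out, and from -29.7 with a threshold of 6 mutants to -16.5 with a reciprocal overlap of 50% otherwise. The exact permutation p stayed at the smallest that the number of mutants allows. Among the 5 mutants whose SMC3 list has the tag of the WT SMC3 list, -29.1 points came with an exact permutation p of 0.0625, which misses the threshold that the full set passed. The number of sites depends on the settings. It was 2780 with a reciprocal overlap of 50%, of which 763 were among the 1096, 460 in the upper 50% of every list by value, 1735 with a threshold of 4 mutants and 666 with a threshold of 6. Leaving out 1 mutant gave 730 sites (without H455R) to 1051 (without R448Q). Of the 28 named sites, 14 stayed with a reciprocal overlap of 50% and 20 with a match within 500 bp. The difference in gene end share ran from -6.52 to -1.03 points and that in the share with a treated CTCF antibody peak from -3.77 to -0.00355. The midpoint match of 500 bp, the width deciles and the run that counted number gaps as SMC3 peaks were chosen after seeing the data. No paired analysis was possible because each list pools both replicates. The unknown depth behind each list limits what the absence of a peak can show.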
